A study of Mus musculus with 41 samples.

Results

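The 10 genes described here mark the endothelial cells that line blood vessels or carry the signals by which vessels grow and settle. They are Pecam1, Cdh5, Emcn, Kdr, Flt1, Tek and Sox17, which are read mainly in endothelial cells, and the secreted ligands Vegfa, Angpt1 and Angpt2. The members were listed by name, with earlier results of these data known, and no threshold on a measured value was used. All 10 were found among the 43346 genes of the count table, and all 10 were among the 19292 genes that passed a filter on low counts and were tested. Their levels were compared between the tibia diaphyses of 12 young mice, 13 old mice given vehicle (vehicle-treated mice) and 16 old mice given the drug (AP-treated mice), 41 females in all. Every mouse of all 3 groups carried the INK-ATTAC transgene on a C57BL/6 background, in which the p16Ink4a promoter drives a caspase that the drug AP20187 (AP) makes dimerize. AP was given at 10 mg per kg 2 times a week for 4 months from the age of 20 months, so that the old mice were 24 months old at the end, and the young mice, 6 to 12 months old by their labels, carry the vehicle label. The bones had been spun to remove marrow before RNA was extracted, and what was sequenced is therefore a mixture of bone, vessel, residual marrow and adhering tissue, in which fewer cells of a type and less RNA per cell cannot be told apart.

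The VEGF system works through the ligand Vegfa, which binds 2 receptor tyrosine kinases on endothelial cells. Kdr (VEGFR2) carries most of the growth signal, whereas Flt1 (VEGFR1) binds the ligand more tightly, signals weakly and, in its soluble form, acts as a trap for it. The angiopoietin system works through the receptor Tek (Tie2), which Angpt1 activates to keep vessels quiet and which Angpt2, released by endothelial cells themselves, mostly antagonizes. In long bones these systems act on the arteries, sinusoids and Emcn-rich capillaries that accompany bone formation.

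The sequences upstream of Flt1 and Kdr are shown because the 2 receptors share a ligand and lie on the same chromosome, yet Flt1 is the member that differed most between the age groups and Kdr did not pass the test. Each is the 250 bases before the RefSeq start of transcription, on the minus strand of GRCm38.p6, at chr5:147726012-147726261 for Flt1 and at chr5:75978456-75978705 for Kdr. Capitals mark the letters of searched motifs, given in the next paragraph.
Flt1: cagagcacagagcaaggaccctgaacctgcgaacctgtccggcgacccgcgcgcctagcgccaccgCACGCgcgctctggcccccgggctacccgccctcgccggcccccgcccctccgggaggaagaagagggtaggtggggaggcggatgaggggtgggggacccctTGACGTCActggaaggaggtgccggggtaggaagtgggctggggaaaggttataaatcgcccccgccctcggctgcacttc
Kdr: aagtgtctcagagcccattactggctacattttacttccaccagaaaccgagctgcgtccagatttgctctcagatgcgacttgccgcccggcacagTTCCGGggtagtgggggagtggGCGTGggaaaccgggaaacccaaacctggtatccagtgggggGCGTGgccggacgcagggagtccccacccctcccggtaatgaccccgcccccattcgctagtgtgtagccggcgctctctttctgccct

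Of the 10 genes, 5 (Emcn, Kdr, Flt1, Tek and Vegfa) are in the RefSeq promoter table, which holds 32851 promoters. Both strands of the 250 bases were searched for the ETS letters CCGGAA and CAGGAAG, the cores of the hypoxia response element ACGTG and GCGTG, the SOX letters ACAATG and ACAAAG and the GATA letters AGATAA and TGATAA. The cyclic AMP response element TGACGTCA was added after the Flt1 sequence had been seen. The Flt1 window holds that element once, at position -81 from the start, and 1.55% of all promoters in the table hold it. It also holds GCGTG on the other strand at -184, a core found in 28.2% of promoters. The Kdr window holds CCGGAA on the other strand at -153, as do 12.0% of promoters, and GCGTG at -131 and at -89. In the other 3 windows, CAGGAAG (10.8% of promoters) and GCGTG each occur once before Emcn, ACAAAG (16.5%) once before Tek and AGATAA (9.99%) once before Vegfa. ACGTG (16.6%), ACAATG (10.7%) and TGATAA (7.94%) occur in none of the 5. The Flt1 window is 70.4% and the Kdr window 61.6% G and C, against a median of 52.4% over the table. These are matches of letters, and no binding was measured.

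Each library held between 37028959 and 75942717 counts (median 47774880), and the members were read with 162 to 16708 counts per mouse. Before any scaling, 1 count was worth at most 0.0270 per 1000000 counts. Levels are given in CPM (counts per 1000000 counts, scaled by the TMM factors). Any 2 mice of a group differed with a chi-square of 33 or more per degree of freedom, and each mouse was used as 1 replicate. Cdkn2a, whose promoter drives the transgene, was read at 0.596 ± 0.307 CPM (SD, n = 12) in young, 2.78 ± 2.02 (SD, n = 13) in vehicle-treated and 1.75 ± 1.70 (SD, n = 16) in AP-treated mice. AP-treated mice 18 and 19 stood apart. Mouse 19 had the lowest level of its group for 7 of the 10 genes and mouse 18 for 2, and mouse 19 had the highest summed level of its group for the megakaryocyte (1858 CPM), erythroid (19048 CPM) and neutrophil (33768 CPM) marker lists and the lowest for skeletal muscle (9797 CPM). The members' results that move with these 2 mice are therefore also given without them, a choice made after their values had been seen.

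In vehicle-treated against young mice, Flt1 rose 1.75-fold, Cdh5 1.36-fold and Angpt1 fell to 0.751 of its level, whereas the other 7 members did not pass the test. A gene is called here at a Benjamini-Hochberg adjusted p under 0.05, from edgeR's quasi-likelihood test on all 19292 genes, together with a log2 fold change above 0.5 or below -0.5. By that rule 1 of the 10 members was called, Flt1, beside 9.06% of all genes tested, and by adjusted p alone 3 were, beside 19.4%. The members' median log2 fold change was 0.09 and that of all genes 0.01, with 8 members above 0 and 2 below.

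**Figure D1:**
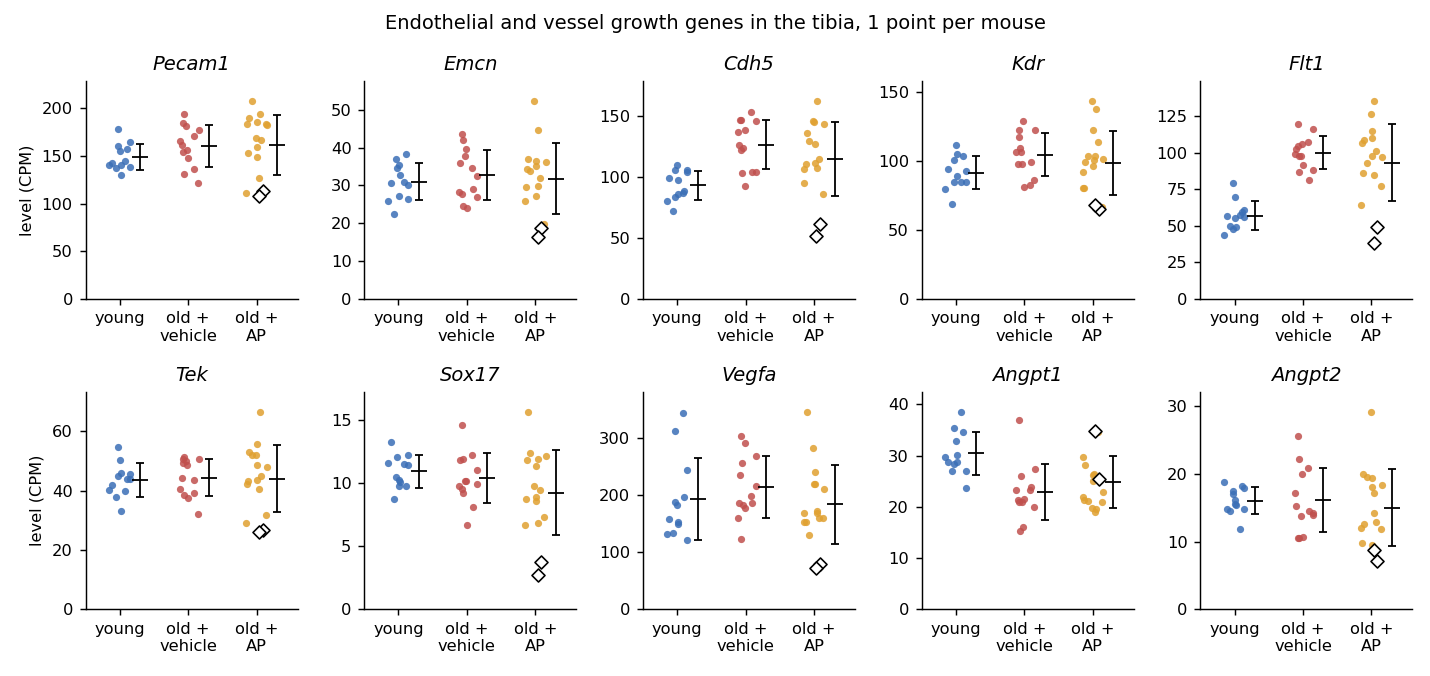
Level of each of the 10 genes in CPM (vertical axes from 0) in young, vehicle-treated and AP-treated mice, with 1 point per mouse and the group mean ± SD as a black bar beside it. Open diamonds are AP-treated mice 18 and 19. For Flt1 the vehicle-treated mice (81.4 to 119.6 CPM) all sit above the young mice (43.9 to 79.0 CPM), and the open diamonds lie at or near the bottom for every gene but Angpt1.

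Flt1 (ENSMUSG00000029648, chromosome 5, 147561604 to 147726011, GRCm38) ranged from 43.9 to 79.0 CPM in young mice (median 56.1), from 81.4 to 119.6 CPM in vehicle-treated mice (median 99.2) and from 38.04 to 135 CPM in AP-treated mice (median 97.4). Every vehicle-treated mouse lay above every young mouse, which holds for 0.503% of all genes tested in either direction. The means were 56.9 ± 9.71 (SD, n = 12), 99.7 ± 11.2 (SD, n = 13) and 93.1 ± 26.3 CPM (SD, n = 16). On the log2 scale vehicle-treated mice were higher than young mice by 0.81 (standard error 0.13, adjusted p = 2.87e-05 in the quasi-likelihood test of edgeR after Benjamini-Hochberg adjustment). Without any single mouse the value stayed between 0.77 and 0.86, with adjusted p under 0.05 in 25 of 25 fits. Of the 16 AP-treated mice, 12 lay above the highest young mouse, and mice 18 (48.8 CPM) and 19 (38.04 CPM) lay below the young median. Against young mice this group was higher by 0.71 on the log2 scale (standard error 0.12, adjusted p = 0.000112 by the same test), and by 0.81 without those 2 mice (adjusted p = 1.95e-07).

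Kdr (ENSMUSG00000062960, chromosome 5, 75932827 to 75978458) ranged from 68.6 to 111 CPM in young mice (median 90.7), from 80.7 to 129 CPM in vehicle-treated mice (median 106) and from 64.9 to 143 CPM in AP-treated mice (median 100.1). The 3 ranges overlapped widely, and the log2 fold changes against young mice were 0.19 (95% interval -0.03 to 0.40) in vehicle-treated and 0.10 (-0.10 to 0.31) in AP-treated mice. Because the 2 receptors are usually weighed against each other, the ratio of Flt1 to Kdr, each per kb of gene length, was taken in every mouse after the levels had been seen. Young mice ranged from 0.292 to 0.494 (median 0.389), vehicle-treated mice from 0.510 to 0.813 (median 0.596) and AP-treated mice from 0.352 to 0.733 (median 0.595). No vehicle-treated mouse reached down to the young range, and 14 of 16 AP-treated mice lay above it. Over 9 such tests (3 ratios, 3 comparisons), the log2 difference against young mice was 0.63 ± 0.08 (SE) with vehicle (adjusted p = 6e-05, two-sided permutation test with 100000 resamples) and 0.58 ± 0.09 (SE) with AP (adjusted p = 9e-05). The unadjusted p of the first, 2e-05, is the smallest that this test can give. Between the 2 old groups the log2 difference of the ratio was -0.05 (adjusted p = 0.673). Without mice 18 and 19 the differences were 0.66 for AP-treated against young mice and 0.02 between the old groups.

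Cdh5 (ENSMUSG00000031871, chromosome 8, 104101625 to 104144502), the cadherin of endothelial junctions, ranged from 71.6 to 109 CPM in young mice (median 92.7), from 92.2 to 153 CPM in vehicle-treated mice (median 126) and from 51.7 to 162 CPM in AP-treated mice (median 113). The young and vehicle-treated ranges overlapped, and 9 of 13 vehicle-treated mice lay above the highest young mouse. The log2 fold change was 0.44 (standard error 0.12, adjusted p = 0.0103 by edgeR's quasi-likelihood test), under the fold-change threshold, and stayed between 0.41 and 0.47 with each mouse left out. In AP-treated against young mice it was 0.30 (adjusted p = 0.0753, same test), and 0.39 (adjusted p = 0.00444) without mice 18 and 19. The loss of these 2 mice thus brought its adjusted p under 0.05, while the change stayed under the fold-change threshold. The ratio of Flt1 to Cdh5 per kb was also taken after the levels had been seen. It was higher by 0.39 ± 0.06 (SE) on the log2 scale in vehicle-treated than in young mice (adjusted p = 6e-05, permutation test). In AP-treated against young mice it was higher by 0.41 ± 0.06 (SE) (adjusted p = 6e-05, permutation test), or 0.42 without mice 18 and 19. Flt1 was already known to have the larger fold change, so these p-values are not independent support for it.

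Pecam1 (ENSMUSG00000020717, chromosome 11, 106654217 to 106750628), an adhesion molecule of endothelial cells that platelets and several leukocytes also carry, ranged from 130.3 to 178 CPM in young mice, from 121 to 194 CPM in vehicle-treated mice and from 108 to 208 CPM in AP-treated mice. Emcn (ENSMUSG00000054690, chromosome 3, 137341067 to 137432185), the sialomucin of capillaries and veins used to grade the vessels of bone, ranged from 22.3 to 38.3, from 24.1 to 43.5 and from 16.3 to 52.4 CPM. Tek (ENSMUSG00000006386, chromosome 4, 94739289 to 94874976) ranged from 33.05 to 54.6, from 32.2 to 51.3 and from 26.2 to 66.6 CPM. For all 3 genes the groups overlapped over most of their range. In vehicle-treated against young mice the log2 fold changes were 0.10 for Pecam1 (95% interval -0.09 to 0.29), 0.08 for Emcn (-0.19 to 0.35) and 0.03 for Tek (-0.20 to 0.25), and the intervals leave out changes past the fold-change threshold. Sox17 (ENSMUSG00000025902, chromosome 1, 4490931 to 4497354), a transcription factor of arterial endothelium, was the least abundant member. It ranged from 8.72 to 13.3 CPM in young mice (median 10.9), from 6.66 to 14.6 CPM in vehicle-treated mice (median 10.1) and from 2.73 to 15.7 CPM in AP-treated mice (median 9.19). Its log2 fold change against young mice was -0.07 (adjusted p = 0.805, edgeR) with vehicle and -0.24 (adjusted p = 0.284) with AP, where the 2 lowest of 16 mice were 18 (3.72 CPM) and 19 (2.73 CPM). Without them it was -0.12 (adjusted p = 0.509). With the level of the 28 other endothelial genes as a covariate it was -0.31 (adjusted p = 0.0275, edgeR) with vehicle and -0.45 (adjusted p = 0.000764) with AP, past an adjusted p of 0.05 and under the fold-change threshold.

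Vegfa (ENSMUSG00000023951, chromosome 17, 46016993 to 46032377), the ligand of both receptors, was the most variable member in young mice. It ranged from 122 to 343 CPM in young mice (median 171), from 123 to 304 CPM in vehicle-treated mice (median 198) and from 73.2 to 346 CPM in AP-treated mice (median 169), with full overlap of the first pair of groups. The log2 fold change of vehicle-treated against young mice was 0.15 with a 95% interval of -0.23 to 0.54, so that a change of the size of the threshold could not be told from none in this gene. Angpt1 (ENSMUSG00000022309, chromosome 15, 42424727 to 42676977), the activating ligand of Tek, which is made by mural, stromal and marrow cells rather than by endothelium, ranged from 23.8 to 38.6 CPM in young mice (median 29.2), from 15.2 to 36.98 CPM in vehicle-treated mice (median 21.6) and from 19.1 to 34.9 CPM in AP-treated mice (median 23.99). In the vehicle-treated group 9 of 13 mice lay below the lowest young mouse, whereas mouse 20, at 36.98 CPM, lay near the top of the young range. The log2 fold change was -0.41 (standard error 0.11, adjusted p = 0.0062 by edgeR's quasi-likelihood test), under the fold-change threshold, and stayed between -0.49 and -0.37 with each mouse left out. In AP-treated against young mice it was -0.29 (adjusted p = 0.0436), and the adjusted p stayed under 0.05 in 16 of 28 fits with 1 mouse left out. Without mice 18 and 19 it was -0.34 (adjusted p = 0.016). Angpt2 (ENSMUSG00000031465, chromosome 8, 18690263 to 18741562) ranged from 11.9 to 18.9 CPM in young mice (median 15.9), from 10.5 to 25.7 CPM in vehicle-treated mice (median 14.5) and from 7.09 to 29.2 CPM in AP-treated mice (median 13.5). Its log2 fold change of vehicle-treated against young mice was 0.01 (95% interval -0.33 to 0.34), while the young mice sat inside the wider range of the old mice.

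The ratio of Angpt2 to Angpt1 per kb ranged from 0.354 to 0.869 in young, from 0.330 to 1.69 in vehicle-treated and from 0.288 to 1.71 in AP-treated mice. In vehicle-treated against young mice it was higher by 0.39 ± 0.21 (SE) on the log2 scale, which did not pass the test (adjusted p = 0.138, permutation test), although 4 of 13 mice lay above the highest young mouse. By the whole spans of the genes, introns included, Angpt2 overlaps Mcph1 on the other strand (30815 and 27706 counts over all mice). Exons were not compared and the strand setting is not stated, so whether this pair shared reads is not known. Angpt1 overlaps Gm17473 (51964 and 1205 counts) and Sox17 overlaps Gm37587 (19740 and 97 counts), also on the other strand. Of the remaining members, Cdh5 overlaps Gm29682, which is not in the count table as used here, and 6 overlap no annotated gene.

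**Figure D2:**
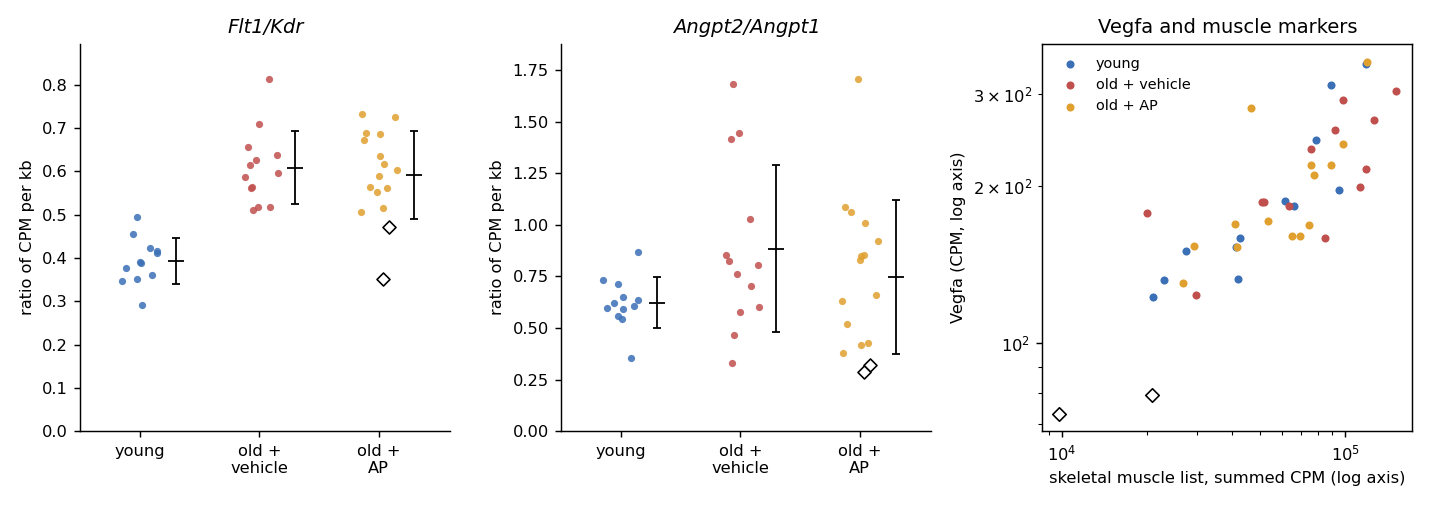
Ratio of Flt1 to Kdr and of Angpt2 to Angpt1, each per kb of gene length (vertical axes from 0), with 1 point per mouse and the group mean ± SD beside it, and at the right Vegfa in CPM against the summed CPM of 14 skeletal muscle genes, both axes logarithmic. Open diamonds are AP-treated mice 18 and 19. The Flt1 to Kdr ratio of vehicle-treated mice (0.510 to 0.813) lies above that of young mice (0.292 to 0.494), and Vegfa is higher in mice with more muscle signal in each group.

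Between AP-treated and vehicle-treated mice, 0 of the 10 members were called by edgeR's quasi-likelihood test, beside 0.0726% of all genes tested, and by adjusted p alone also 0, beside 0.171%. At an unadjusted p under 0.05 the count was 0 of 10 as well, beside 23.9% of all genes, and DESeq2 also called 0. The log2 fold changes ran from -0.22 (Vegfa, 95% interval -0.58 to 0.14) to 0.12 (Angpt1, -0.09 to 0.33), with a median of -0.09 over the members and -0.0037 over all genes. For 9 of the 10 members, all but Vegfa, the interval lay inside the fold-change threshold on both sides. Flt1 stood at -0.10 (-0.34 to 0.14), Cdh5 at -0.14 (-0.37 to 0.09) and Kdr at -0.09 (-0.29 to 0.11). Without AP-treated mice 18 and 19 the log2 fold changes ran from -0.11 to 0.08 with a median of -0.0036, that of Flt1 became 0.0059, and the lowest adjusted p was 0.711. The fold changes of the old groups against young mice use the same young mice and are set side by side, not compared: 0.81 and 0.71 for Flt1, 0.44 and 0.30 for Cdh5, -0.41 and -0.29 for Angpt1. In AP-treated against young mice 1 of 10 members was called, again Flt1, beside 8.58% of all genes, and 2 (Flt1 and Angpt1) had an adjusted p under 0.05 alone, beside 17.8%.

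**Figure D3:**
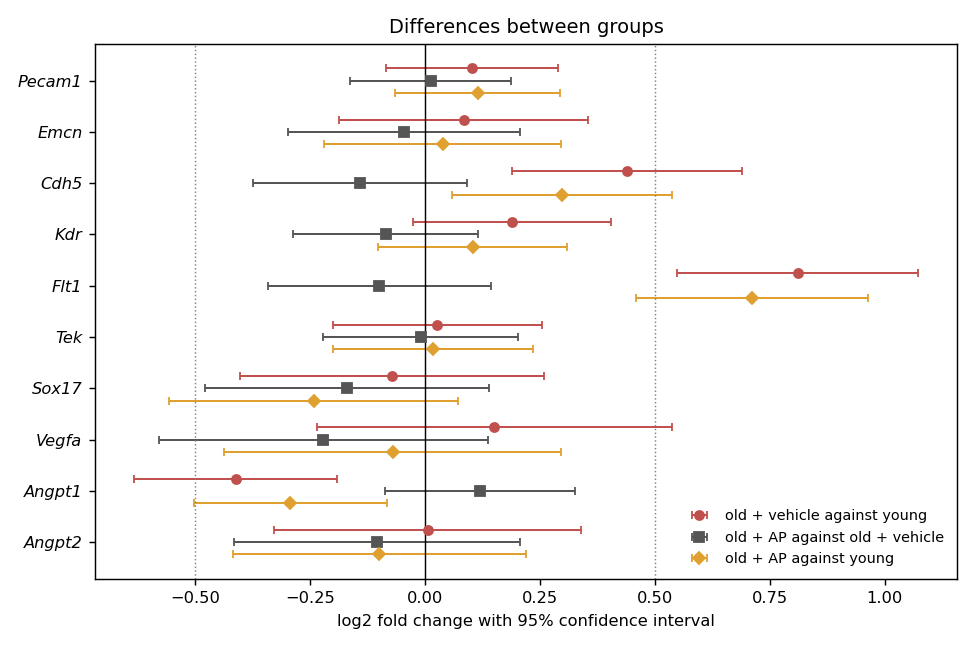
Log2 fold change of each gene in the 3 comparisons between groups, with its 95% confidence interval (horizontal axis), and dotted lines at -0.5 and 0.5, the fold-change threshold. Flt1 is the one gene whose interval against young mice lies wholly above 0.5 with vehicle (0.55 to 1.07), and every interval between the 2 old groups spans 0.

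The spread between mice differed between the groups. The coefficient of variation ran from 9.28% to 37.2% over the members in young mice and from 19.8% to 37.7% in AP-treated mice. It was smallest in young mice for 8 of 10 members, all but Flt1 and Vegfa, and largest in AP-treated mice for 9, all but Angpt1. Without mice 18 and 19 it was largest in that group for 8 of 10. Angpt2 went from 12.2% in young to 29.6% and 37.7% in the 2 old groups, and Sox17 from 11.8% to 19.2% and 36.2%. These differences in spread were not tested.

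Per kb of gene length, Vegfa was the most abundant member in every group, at 44.9 ± 16.7 CPM per kb (SD, n = 12) in young mice. Pecam1 (23.95 ± 2.22) and Cdh5 (23.3 ± 3.03) followed, and did not separate, with Pecam1 above Cdh5 in 7 of 12 young mice. Kdr (12.6 ± 1.67), Tek (9.23 ± 1.20), Angpt1 (7.15 ± 0.981), Emcn (5.72 ± 0.904), Flt1 (4.91 ± 0.839), Angpt2 (4.36 ± 0.532) and Sox17 (2.29 ± 0.271) came next. Emcn lay above Flt1 and Flt1 above Angpt2 in 9 of 12 young mice each, so that these neighbours were not clearly ordered. In vehicle-treated mice Flt1, at 8.61 ± 0.971 CPM per kb (SD, n = 13), moved from the eighth to the sixth place, above Emcn in 13 of 13 mice, and Cdh5 (31.6 ± 5.05) lay above Pecam1 (25.7 ± 3.53) in 12 of 13. Angpt1 (5.37 ± 1.28) fell behind Emcn (6.07 ± 1.22), but this pair was ordered so in only 7 of 13 mice. The order of the means in AP-treated mice was the same as with vehicle.

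Across the 41 mice, with the mean of each group subtracted, the 7 endothelial members varied together. Over the 45 pairs of members, 35 correlated at an adjusted p under 0.05 (two-sided permutation test within groups, 100000 resamples, Benjamini-Hochberg over 45 pairs), and among them were all 21 pairs of the 7 endothelial members. Pearson's r of these 21 ran from 0.49 (Pecam1 with Kdr) to 0.89 (Cdh5 with Flt1) and Spearman's rho from 0.42 to 0.86. With the 2 mice farthest from the median of the first gene left out, r still ran from 0.40 to 0.83. Within groups it ran from 0.14 to 0.81 in young, from 0.36 to 0.86 in vehicle-treated and from 0.57 to 0.95 in AP-treated mice. All points share one normalization of each library, and a mixture with more vessel RNA moves all such genes at once, so that these are not correlations within endothelial cells.

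The 3 ligands stood in different relations to this block. Angpt2 followed it, with r from 0.53 (Kdr) to 0.77 (Emcn) and all 7 pairs passing (largest adjusted p = 0.0031, permutation test), and its rho ran from 0.40 to 0.71. This was not seen in the 12 young mice alone, where r lay between -0.06 and 0.42. Angpt1 did not follow it, with r from -0.30 to -0.08 and 0 of 7 pairs passing, and it was lower where Angpt2 was higher (r = -0.53, rho = -0.49, adjusted p = 0.00176, permutation test). Without the 2 mice farthest from the Angpt1 median that r was -0.45. Vegfa passed with 6 of 7 members by r (0.31 to 0.59) and with 1, Flt1, by rho (0.17 to 0.49), but without the 2 farthest mice r fell to between 0.10 and 0.33, and over all groups without AP-treated mice 18 and 19 it ran from 0.03 to 0.33. Within groups it ran from 0.01 to 0.43 in young, from -0.55 to 0.10 in vehicle-treated and from 0.58 to 0.82 in AP-treated mice, mice 18 and 19 included.

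**Figure D4:**
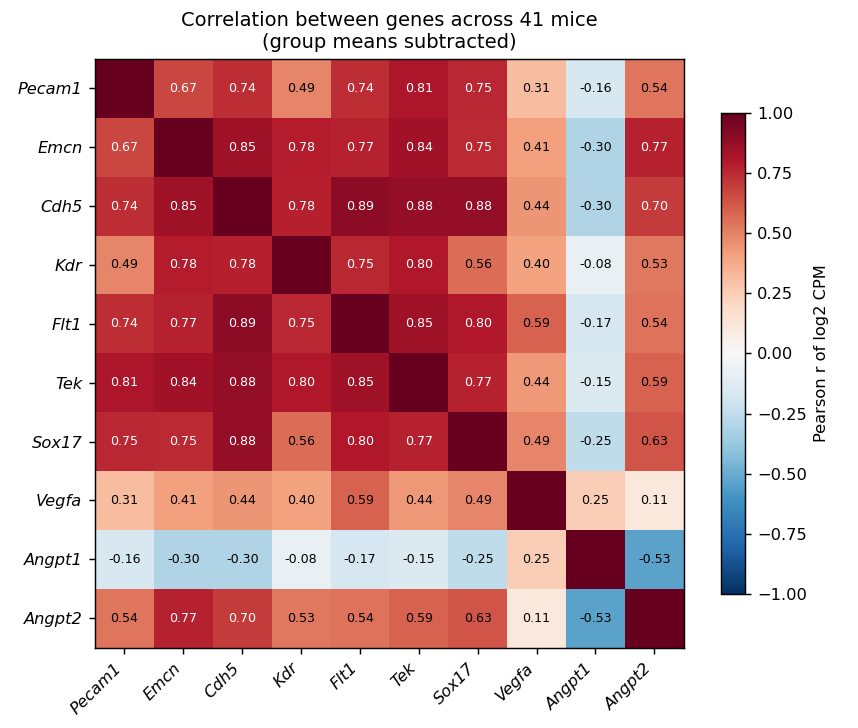
Pearson's r of log2 CPM for each pair of the 10 genes over 41 mice, after the mean of each group was subtracted, with red for positive and blue for negative values. The 7 endothelial members form a red block (0.49 to 0.89) that Angpt2 joins, and Angpt1 is blue against Angpt2 (-0.53).

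By a fixed rule, the 3 genes most like each member were taken from 15540 genes with a mean of at least 1 CPM, by the highest r over the 41 mice. For Flt1 they were Gpr116 (r = 0.90), Podxl (0.90) and Cd300lg (0.90), for Kdr Pcdh12 (0.87), Cd300lg (0.84) and Arhgef15 (0.83), and for Cdh5 She (0.92), Arhgef15 (0.92) and Dll4 (0.91). She was also the first for Emcn (0.91, before Nrp1 and Arhgef15) and the second for Tek (0.90, after Prex2 and before Ptprb). Pecam1 was closest to Podxl (0.84), Ecscr (0.83) and Rasgrf2 (0.83), and Sox17 to Fgd5 (0.90), Sema3g (0.90) and Hspa12b (0.89). Vegfa was closest to Cyhr1 (0.90), Ldhd (0.90) and Nmnat1 (0.90), Angpt1 to Prkca (0.87), Trappc2 (0.86) and Tnik (0.86), and Angpt2 to Mgat3 (0.88), Colec12 (0.88) and Rhod (0.87).

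Marker lists of other cells moved with some members. The summed level of 14 skeletal muscle genes ran from 20974 to 118437 CPM in young mice (median 52031), from 19903 to 150532 CPM in vehicle-treated mice (median 84895) and from 9797 to 119104 CPM in AP-treated mice (median 59018), and 3 of the 14 genes were called higher in vehicle-treated than in young mice, beside 4.30% of all genes. Over 180 relations of a member to a list, Vegfa had its highest r with this list (r = 0.83, rho = 0.86, adjusted p = 4.74e-05, permutation test, r = 0.83 without the 2 farthest mice). Flt1 had an r of 0.56 with it (rho = 0.46, adjusted p = 0.0011, permutation test), which became 0.33 without AP-treated mice 18 and 19. Its r was higher with the mural cell list (r = 0.82, rho = 0.72, adjusted p = 4.74e-05, permutation test, r = 0.67 without mice 18 and 19), and it was negative with the megakaryocyte list (r = -0.64, rho = -0.59, adjusted p = 0.000331, permutation test, r = -0.50 without them) and the neutrophil list (r = -0.60, rho = -0.61, adjusted p = 4.74e-05, permutation test, r = -0.50 without them). With the osteoblast and osteocyte list r was 0.58 (adjusted p = 0.00439, permutation test) and 0.30 without them, and rho was 0.33, which did not pass (adjusted p = 0.0756, permutation test). Among the other endothelial members r with this list ran from 0.36 (Pecam1, adjusted p = 0.0908, permutation test) to 0.76 (Emcn, adjusted p = 4.74e-05, permutation test). Angpt2 had an r of 0.80 with it (rho = 0.74, adjusted p = 4.74e-05, permutation test). Without mice 18 and 19 r was 0.65 for Emcn and 0.74 for Angpt2. With the muscle level as a covariate Flt1 was still higher in vehicle-treated than in young mice, by 0.73 on the log2 scale (adjusted p = 1.03e-05, edgeR), whereas Vegfa stood at -0.0074. With the level of 28 other endothelial genes as a covariate Flt1 was higher by 0.66 (adjusted p = 2.96e-06) and Cdh5 by 0.26 (adjusted p = 0.00398). Markers of megakaryocytes, cells that hold Angpt1 and Vegfa, were lower in vehicle-treated than in young mice for 7 of 9 genes, beside 4.76% of all genes, with summed levels of 302 to 633 CPM against 384 to 1500 CPM. Over the mice Angpt1 had an r of -0.08 with this list (rho = -0.13, adjusted p = 0.668, permutation test) and Vegfa one of -0.75 (rho = -0.76, adjusted p = 4.74e-05, permutation test). Of 6 marrow stroma genes, 3 fell in the same comparison, with summed levels of 724 to 2076 CPM against 1295 to 2598 CPM, and r with Angpt1 was -0.35 (rho = -0.32, adjusted p = 0.0538, permutation test). Angpt1 did pass with the skeletal muscle list (r = 0.41, rho = 0.52, adjusted p = 0.0174, permutation test, r = 0.68 without mice 18 and 19), and negatively with the venous and sinusoidal (r = -0.56, rho = -0.50, adjusted p = 0.00100), macrophage (r = -0.50, rho = -0.41, adjusted p = 0.00439) and osteoblast and osteocyte lists (r = -0.50, rho = -0.60, adjusted p = 0.00332). Although it passed with none of the 7 endothelial members singly, it also passed negatively with the lists of other endothelial genes (r = -0.49, rho = -0.39, adjusted p = 0.00503, permutation test, r = -0.43 without mice 18 and 19), arterial and Notch genes (r = -0.56, rho = -0.53, adjusted p = 0.000695, permutation test) and angiopoietin-like genes with Tie partners (r = -0.48, rho = -0.48, adjusted p = 0.0058, permutation test). Cdh5 passed with the mural cell (r = 0.90, rho = 0.88) and osteoblast and osteocyte lists (r = 0.75, rho = 0.62), each at adjusted p = 4.74e-05 (permutation test). It passed negatively with the neutrophil (r = -0.61, adjusted p = 0.00024, permutation test) and megakaryocyte lists (r = -0.60, adjusted p = 0.000433, permutation test). Without mice 18 and 19 its r was 0.83, 0.61, -0.51 and -0.44, in that order. The part of these cells in the group differences of Flt1, Cdh5, Vegfa and Angpt1 was not tested beyond these values.

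Other genes of vessels and their signals were taken from 7 lists of 94 different genes, chosen with earlier results of these data known, of which the 14 genes of the hypoxia response are 1 list, and mural and lymphatic genes were counted apart. In vehicle-treated against young mice 9 of the 94 rose and 6 fell, beside 4.30% and 4.76% of all genes tested, in AP-treated against vehicle-treated mice 0 were called in either direction by edgeR, beside 0.0726%, with 16 at an unadjusted p under 0.05, beside 23.9%, and in AP-treated against young mice 3 rose and 8 fell, beside 3.73% and 4.85%. All 11 of these were also called, in the same direction, without AP-treated mice 18 and 19. Of 28 other endothelial genes 1 rose with vehicle, Sox7, a transcription factor of the family of Sox17, with 8.33 ± 2.20 CPM (SD, n = 13) against 4.92 ± 1.71 CPM (SD, n = 12) in young mice. Its log2 fold change was 0.76 (adjusted p = 0.0048, edgeR). It was also called in AP-treated against young mice (0.69, adjusted p = 0.00889). The median log2 fold change of this list was 0.18, against 0.01 over all genes. Of 12 arterial and Notch genes 1 rose, the Notch ligand Jag2 (log2 fold change 0.59, adjusted p = 0.0263), and of 10 venous and sinusoidal genes 2 rose, the venous regulator Nr2f2 (0.66, adjusted p = 0.000313) and the secreted glycoprotein Lrg1 (0.66, adjusted p = 0.0183). The median log2 fold change was -0.06 over the arterial and Notch list and 0.05 over the venous and sinusoidal list.

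Of the 7 other VEGF ligands and co-receptors, Vegfd, a ligand of the lymphatic receptor Flt4, rose from 2.37 ± 1.06 CPM (SD, n = 12) to 4.97 ± 2.37 CPM (SD, n = 13), a log2 fold change of 1.07 (adjusted p = 0.00181, edgeR). The co-receptor Nrp2 fell from 794 ± 171 to 506 ± 139 CPM, a log2 fold change of -0.65 (adjusted p = 0.0141). A list of 10 genes held Angpt4, angiopoietin-like genes and partners of the Tie receptors. With vehicle 1 of them fell, beside 4.76% of all genes, the angiopoietin-like gene Angptl1 (log2 fold change -0.73, adjusted p = 0.0247, edgeR). In AP-treated against young mice Angptl1 (-0.69, adjusted p = 0.0269) and the angiopoietin-like gene Angptl2 (-0.75, adjusted p = 0.00179) were lower by the same test. No other gene of this list was called. Vegfd and Nrp2 were called in that comparison too, at 0.82 (adjusted p = 0.0135) and -0.79 (adjusted p = 0.0024).

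Of 16 other signals that promote or restrain vessel growth, 2 rose and 4 fell in vehicle-treated mice, beside 4.30% and 4.76% of all genes. Thbs1, a secreted inhibitor of vessel growth that platelets also store, fell, with 1029 ± 299 CPM (SD, n = 12) in young, 307 ± 78.7 CPM (SD, n = 13) in vehicle-treated and 365 ± 125 CPM (SD, n = 16) in AP-treated mice. Its log2 fold change was -1.74 with vehicle (adjusted p = 4.15e-09, edgeR) and -1.50 with AP (adjusted p = 1.5e-08). Thbs2, a related inhibitor, was lower by the same test (-1.24 with vehicle, adjusted p = 2.46e-05, and -1.48 with AP, adjusted p = 4.38e-07). Esm1, a proteoglycan of endothelial tip cells, was lower as well (-0.76, adjusted p = 0.000553, and -0.93, adjusted p = 2.4e-05), as was the stromal chemokine Cxcl12 (-0.61, adjusted p = 0.00165, and -0.61, adjusted p = 0.00123). The growth factor Fgf2 (0.75, adjusted p = 0.0134) and the protease Adamts1 (0.52, adjusted p = 0.0284) rose with vehicle. Serpinf1, another secreted inhibitor, was called in AP-treated against young mice (-0.80, adjusted p = 0.0138) and was not called in the other comparisons. Markers of megakaryocytes, the source of platelets, moved in the direction of Thbs1 with vehicle (7 of 9 lower), and their part in its fall was not tested. In AP-treated against young mice 1 of the 9 was lower, and their median log2 fold change was -0.32 there against -0.93 with vehicle. The 16 genes together had a median of 0.06 with vehicle.

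Of 14 genes of the hypoxia response, 2 rose in vehicle-treated mice, the glucose transporter Slc2a1 (log2 fold change 0.81, adjusted p = 0.000354, edgeR) and the prolyl hydroxylase Egln3 (1.21, adjusted p = 0.00382), and Egln3 was also higher in AP-treated than in young mice (0.92, adjusted p = 0.0244). The list's median was 0.25, and Vegfa, a target of the same response, followed its level over the mice (r = 0.78, rho = 0.80, adjusted p = 4.74e-05, permutation test). The list's level itself followed that of the skeletal muscle list over the 41 mice (r = 0.93, rho = 0.90), with which the r of Vegfa was 0.83. Of 12 mural cell genes 2 rose with vehicle, Des (1.19, adjusted p = 0.00498), which muscle fibres also express, and Cspg4 (0.53, adjusted p = 0.034). Of 4 lymphatic genes 1 rose with vehicle, beside 4.30% of all genes, Prox1 (1.28, adjusted p = 0.00971), from 1.70 ± 1.03 to 4.13 ± 2.72 CPM. The others were not called, and the mean of Pdpn was 16.9 CPM with vehicle against 21.3 CPM in young mice. In AP-treated against young mice Prox1 was not called and Pdpn was lower (-0.60, adjusted p = 0.0413), which without mice 18 and 19 was at -0.51 (adjusted p = 0.0956). Of the other cell lists, beside 4.30% of all genes higher and 4.76% lower, 5 of 6 B cell, 3 of 8 erythroid and 1 of 8 macrophage genes were lower in vehicle-treated than in young mice, 4 of 14 osteoblast and osteocyte genes were lower and 2 higher, 1 of 7 adipocyte genes was higher and 1 lower, and 0 of 9 neutrophil genes were called. In AP-treated against young mice 8 of the 14 osteoblast and osteocyte genes were lower and 2 higher (median log2 fold change -0.62), 3 of 9 neutrophil genes were higher (median 0.52), 2 of 8 erythroid, 2 of 6 marrow stroma, 1 of 7 adipocyte, 1 of 8 macrophage and 1 of 6 B cell genes were lower, and 0 of 14 muscle genes were called, beside 3.73% of all genes higher and 4.85% lower. Without AP-treated mice 18 and 19, 0 of these 3 neutrophil genes, 5 of these 8 osteoblast and osteocyte genes and 0 of this 1 B cell gene were still called. In AP-treated against vehicle-treated mice 0 of the 187 genes of all 18 lists were called by edgeR, 32 had an unadjusted p under 0.05 (23.9% of all genes did), and 4 were called by DESeq2, which called 204 of the 16022 genes it tested.

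**Figure D5:**
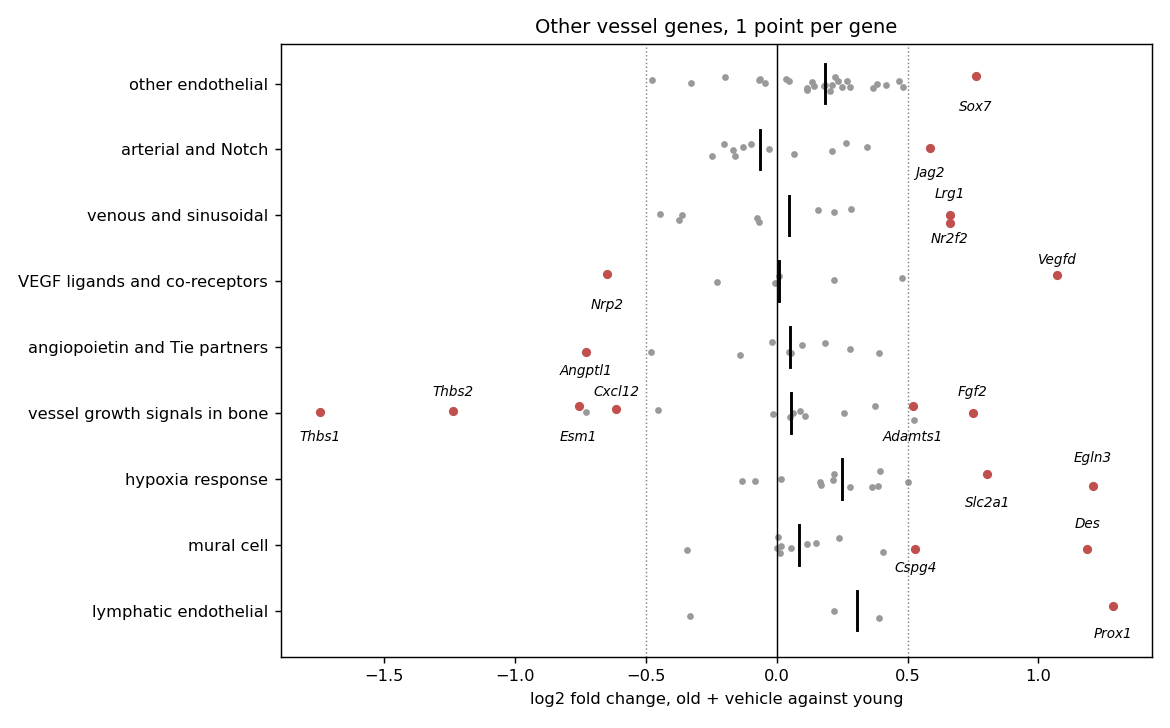
Log2 fold change of vehicle-treated against young mice (horizontal axis) for the genes of 9 lists related to vessels, with 1 point per gene, the median of each list as a black bar and dotted lines at -0.5 and 0.5. Named red points passed both thresholds of the test. Thbs1 (-1.74) and Thbs2 (-1.24) lie farthest to the left and Prox1 (1.28) and Egln3 (1.21) farthest to the right.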

How the data were processed

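The authors sequenced tibia RNA on a HiSeq2000 and deposited raw counts per gene, 1 column for each of 41 mice. The submitters' processing notes name TopHat2 2.0.6, HTSeq and GRCm38. The annotation release and the strand setting are not given in the sources used here. The table was read as deposited, with 0 columns of other samples.

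In R 4.3.3, edgeR 4.0.16 gave TMM factors, the default expression filter (19292 genes kept) and the quasi-likelihood test in one model of 3 groups, with Benjamini-Hochberg adjustment over all genes tested. CPM are counts per 1000000 counts, and levels per kb use the gene lengths of the table. Log2 CPM had a prior count of 2. Permutations (100000) were run in Python 3.11.15. Those for correlations were drawn within groups with NumPy 2.4.6, and those for the ratios between the mice of 2 groups with SciPy 1.17.1. The ratios were not among the planned tests and were taken after the levels had been seen. DESeq2 1.42.0 was an alternative. The scripts were tested on simulated data. P-values measure the spread between mice, and no label gives a batch.

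Named were the 10 members, the called genes of the vessel lists (the 3 largest each way where over 6 were called) and the 3 genes most like each member. The members and the 18 gene lists were chosen with earlier results of these data known. Alternatives were DESeq2, its size factors, no filter, 2-group models, no fold-change threshold, 2 covariates, each mouse left out and, chosen after seeing the data, both old + AP-treated mice 18 and 19 left out. Of the listed genes, 5 were matched by identifier rather than by symbol. Protein sequences were not used here.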

Additional observations from a re-analysis of the deposited data

How the results depend on the processing

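The count of members called (1 with vehicle against young, 0 with AP against vehicle, 1 with AP against young) was the same under DESeq2, its size factors, no filter, models of 2 groups, both covariates, the loss of AP-treated mice 18 and 19 and the loss of any single mouse (25, 29 and 28 fits). By adjusted p alone it was 3, 0 and 2. Flt1 stayed between 0.66 and 0.82 (vehicle) and between 0.59 and 0.81 (AP) on the log2 scale over these settings other than the loss of a single mouse, with adjusted p at most 4.31e-05 and 0.00118 by the tool of each setting. Without 1 mouse it lay between 0.77 and 0.86 (adjusted p up to 0.000149, edgeR, without young mouse 39) and between 0.67 and 0.76 (up to 0.00056). Angpt1 in AP-treated against young mice passed an adjusted p of 0.05 in 5 of 7 settings and in 16 of 28 fits without 1 mouse (adjusted p up to 0.0884, without young mouse 40), and Cdh5 in 2 of 7 and 2 of 28. Genes of the 18 lists called with AP against vehicle numbered 4 under DESeq2, 0 in the other settings and 0 to 7 without 1 mouse, with 3 without vehicle-treated mouse 2, 7, 4 and 1 without AP-treated mice 9, 10 and 27 and 1 without vehicle-treated mouse 14. Over all genes that comparison gave 14 calls (35.7% higher), 204 under DESeq2 (54.4% higher), 33 by adjusted p alone, 1 and 5 with the muscle and endothelial covariates, 0 without a filter, in the model of 2 groups and without mice 18 and 19, and 0 to 405 without 1 mouse. The cause was not tested.

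Log2 fold changes near 0 changed sign in some settings, each at an adjusted p over 0.05. With the muscle covariate Tek was at -0.014 and Vegfa at -0.0074 with vehicle against young, and Tek at 0.034 with AP against vehicle. With the endothelial covariate Pecam1 was at -0.016, Emcn at -0.12, Tek at -0.12 and Angpt2 at -0.25 with vehicle against young, Emcn at 0.0096 and Tek at 0.020 with AP against vehicle, and Emcn at -0.11 and Tek at -0.10 with AP against young. Without mice 18 and 19 Emcn was at 0.041, Flt1 at 0.0059 and Tek at 0.069 with AP against vehicle, and Vegfa at 0.041 with AP against young. Without 1 mouse the ranges were -0.0048 to 0.060 for Tek and -0.067 to 0.047 for Angpt2 with vehicle against young, -0.019 to 0.039 for Pecam1 and -0.060 to 0.026 for Tek with AP against vehicle, and -0.026 to 0.078 for Emcn, -0.033 to 0.051 for Tek and -0.16 to 0.035 for Vegfa with AP against young. The pairs passing numbered 35 with a prior count of 0.5 and with DESeq2's size factors, 31 by Spearman's rho and 30 without 2 mice each, of 45. No paired analysis was possible because no label pairs mice across groups.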
